A study of Mus musculus with 28 samples.

Results

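The comparison described here was between lungs of mice that breathed carbon black and ozone together and lungs of mice that breathed carbon black alone, both on day 4. Its members were the 6 libraries that the labels give to these groups, 3 per group, of 28 libraries in 8 groups. The animals were wild-type male C57BL/6 mice, labelled as 8 to 12 weeks old. Carbon black (CB) was given at 10 mg/m3 and the co-exposure (CB-O3) added ozone at 2 ppm, each for 3 h a day over 4 daily exposures, so particles were common to both groups and ozone was what differed. Sham mice breathed air, and 2 further pairs of groups are used below for contrast: ozone alone against sham on day 4 (3 libraries each), and CB-O3 against CB after a single exposure on day 1 (4 libraries each). RNA came from homogenates of the whole lung, a mixture of all its cell types and the blood within it, in which fewer cells of a type and less RNA per cell cannot be told apart. Whether every library came from its own animal is not given, and the p-values describe variation among libraries, which may be technical.

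Ozone is an oxidant gas that reacts with the fluid and cells lining the airways and injures ciliated cells and the thin type 1 cells of the alveolus. Repair of such injury is known to proceed through division of surviving club, basal and type 2 cells, through a transitional epithelial state rich in keratins, and through recruitment of macrophages. Carbon black is an insoluble particle taken up mainly by macrophages.

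The 6 libraries held 5135492 to 7232186 estimated counts. In total 14887 genes were tested, and 5687 of them (38.2%) passed an adjusted p of 0.05 by edgeR's quasi-likelihood test with Benjamini-Hochberg adjustment. Of these, 2872 (19.3% of genes tested) were higher in CB-O3 and 2815 (18.9%) were lower, and 727 (4.88%) rose and 587 (3.94%) fell by at least 1 on the log2 scale, 8.83% in all. Sizes of change below are log2 fold changes unless another scale is named. The 3 CB-O3 libraries lay outside the range of the 3 CB libraries for 5473 genes (36.8%). The median log2 fold change over all genes was -0.005. The spread was estimated over all 28 libraries, and a fit of the 6 libraries alone called 2373 genes. In a principal component analysis of the 6 libraries, the first component held 53.1% of the variance and separated the groups without overlap.

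Short and long transcripts differed between the libraries in a way that touches many of the results. Each gene was given the length of its longest transcript in GENCODE M21. Over 541 genes with a transcript under 1000 bases, the median log2 ratio to the mean of the day 4 libraries was 0.47 and 0.44 in CB-O3 replicates 2 and 3, and between -0.35 and 0.10 in the other 10 libraries. Over 2977 genes with a transcript over 5000 bases, it was -0.21 and -0.23 in those CB-O3 replicates and between -0.02 and 0.14 elsewhere. CB-O3 replicate 1 resembled the other groups, and CB replicate 2 lay at the opposite end. The median log2 fold change of the comparison fell from 0.30 in the shortest of 5 equal groups of genes to -0.25 in the longest, where 225 genes were higher and 1083 lower. The same medians ran from 0.23 to -0.14 on day 1, and were both -0.03 for ozone against sham. What part this had in single genes was not tested, so each group of genes below was also fitted with each library's length trend removed, and with CB-O3 replicate 1 as the single co-exposed library. These fits called 4933 and 1999 genes, of which 4080 and 1824 were among the 5687. The second has 1 library in an arm, whose spread is taken to be that of the other groups.

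**Figure D1:**
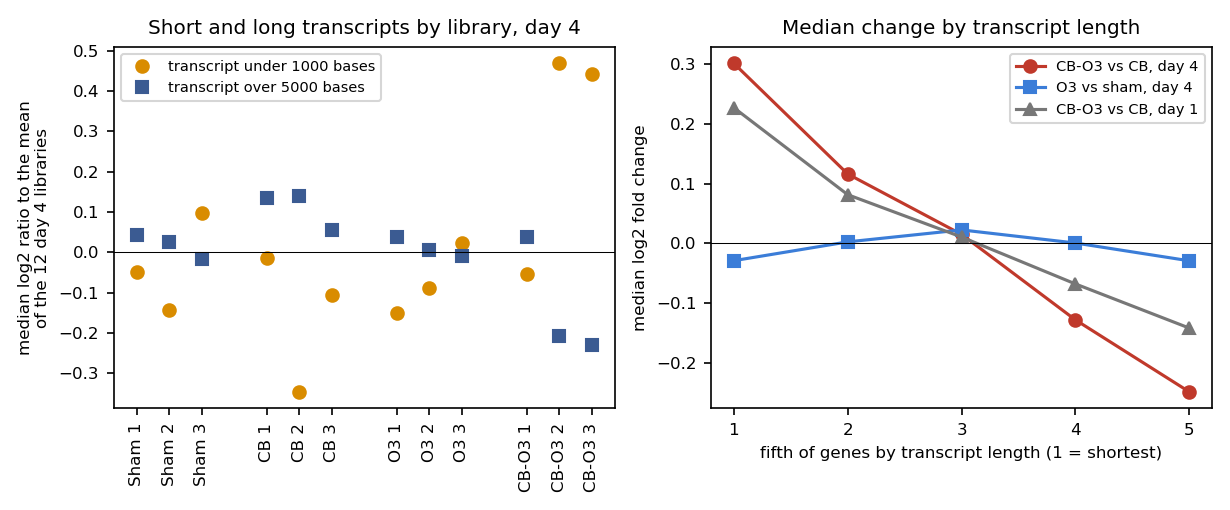
Left, the median log2 ratio of short (circles) and long (squares) transcripts in each day 4 library to the mean of the 12 day 4 libraries. CB-O3 replicates 2 and 3 stand apart, with short transcripts at 0.47 and 0.44. Right, the median log2 fold change in 5 equal groups of genes by transcript length for the comparison (circles), ozone against sham on day 4 (squares) and the comparison on day 1 (triangles).

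Replicate 3 of both groups also held skeletal muscle RNA. The actin of skeletal muscle, Acta1, stood at 123 CPM (counts scaled to a common library size) in CB replicate 3 and 215 CPM in CB-O3 replicate 3, and at no more than 1.5 CPM in the other 4 libraries. Summed over lists, skeletal muscle genes ranged from 9.52 to 518 CPM in CB and from 6.54 to 826 CPM in CB-O3, adipose genes from 91.5 to 915 and from 51.1 to 382 CPM, and cardiac genes from 258 to 1556 and from 202 to 808 CPM. None of these lists had a member past the threshold. Lung identity was plain in all 6 libraries: Sftpc, the surfactant protein of type 2 cells, ranged from 13472 to 18849 CPM, and Scgb1a1, the secretory protein of club cells, from 17399 to 42866 CPM.

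The strongest group was the cell cycle. All 20 genes of mitosis and G2/M were higher in CB-O3, with a median log2 fold change of 3.06, and so were all 20 genes of DNA replication and G1/S, with a median of 1.89. Cdc20 (chr4:118432901-118437352, GRCm38), the activator of the anaphase-promoting complex, measured 3.25, 5.74 and 5.41 CPM in the CB libraries and 53.5, 62.0 and 65.5 CPM in the CB-O3 libraries. Every co-exposed library was thus far above every library with particles alone, and the log2 fold change was 3.61 ± 0.21 (SE, n = 3 and 3 libraries, edgeR adjusted p = 5.2e-12). The mitotic kinase Cdk1 went from 4.54, 6.69 and 3.51 CPM to 54.2, 70.1 and 77.7 CPM (log2 3.76 ± 0.30), and Aurka, the kinase of the spindle poles, from 2.81, 2.73 and 2.84 CPM to 27.2, 26.0 and 28.2 CPM (log2 3.27 ± 0.22). Mki67, the Ki-67 antigen of dividing cells, rose by 2.66 ± 0.34 and Top2a, topoisomerase of mitotic chromosomes, by 3.10 ± 0.36. In the replication group the helicase subunit Mcm2 rose by 1.6 ± 0.20, the sliding clamp Pcna by 1.32 ± 0.13, the ribonucleotide reductase subunit Rrm1 by 1.75 ± 0.14 and thymidylate synthase Tyms by 2.03 ± 0.16. All 40 genes were higher in both further fits, with medians of 2.97 and 2.00 after removal of the length trend and of 3.03 and 1.76 with CB-O3 replicate 1.

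The promoters of 3 of these mitotic genes are shown because they share short elements that are known from cell cycle genes. Each is 300 bases, from 250 before to 50 after the RefSeq start (GRCm38.p6), read 5′ to 3′ on the strand of the gene. Capitals mark matches to the cell cycle homology region, TTTGAA. The positions are chr4:118437294-118437593, chr2:172370521-172370820 and chr10:69352863-69353162, all on the minus strand.
Cdc20: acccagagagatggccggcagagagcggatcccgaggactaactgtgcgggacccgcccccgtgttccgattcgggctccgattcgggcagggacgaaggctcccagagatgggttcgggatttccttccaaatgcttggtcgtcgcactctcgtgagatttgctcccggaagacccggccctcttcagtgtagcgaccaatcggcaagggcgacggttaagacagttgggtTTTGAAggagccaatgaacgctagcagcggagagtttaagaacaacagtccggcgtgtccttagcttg
Aurka: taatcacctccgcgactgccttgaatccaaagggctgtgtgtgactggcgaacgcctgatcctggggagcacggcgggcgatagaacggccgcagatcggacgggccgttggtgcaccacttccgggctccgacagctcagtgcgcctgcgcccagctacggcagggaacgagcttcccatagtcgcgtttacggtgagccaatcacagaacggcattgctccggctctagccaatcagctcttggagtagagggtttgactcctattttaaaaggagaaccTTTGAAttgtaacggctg
Cdk1: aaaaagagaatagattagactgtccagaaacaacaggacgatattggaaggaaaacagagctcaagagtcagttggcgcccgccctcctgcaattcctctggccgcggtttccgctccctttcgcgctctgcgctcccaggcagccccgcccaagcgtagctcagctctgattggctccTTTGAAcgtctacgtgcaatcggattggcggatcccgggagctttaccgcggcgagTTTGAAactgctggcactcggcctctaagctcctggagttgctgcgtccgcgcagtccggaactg
Both strands were searched for TTTGAA, whose reverse complement is TTCAAA, and for the CCAAT box, read as ATTGG on the other strand. Of 18 promoters of the mitosis list found in the table (17 genes), 13 (72.2%) held TTTGAA, against 1795 of 14417 promoters of all genes tested (12.5%) and 21.8% of promoters of genes that rose by at least 1. CCAAT was in 88.9% of the mitosis promoters and 37.0% of all. Of the 17 promoters of the replication list, 5.9% held TTTGAA and 64.7% held CCAAT. A match is a description of the letters and not of binding.

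**Figure D2:**
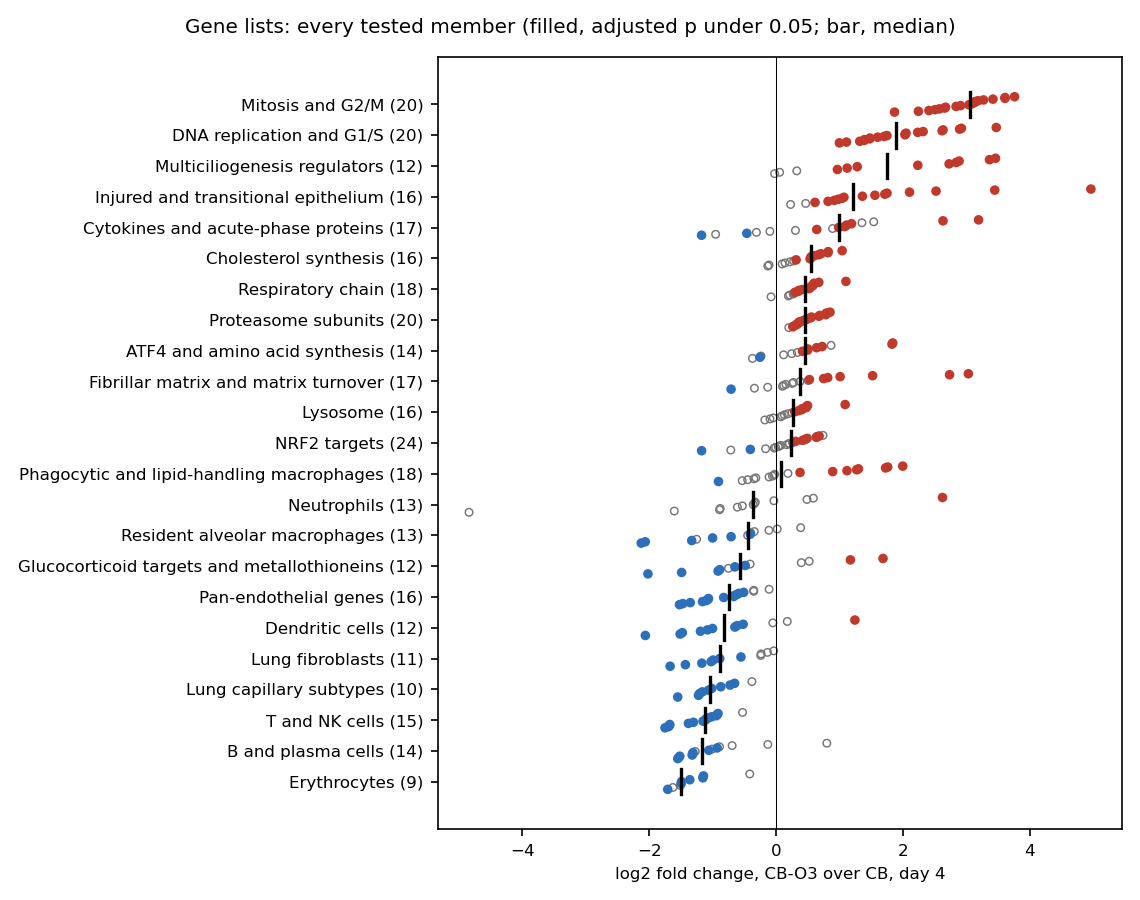
Log2 fold change of CB-O3 over CB on day 4 for every tested member of 23 gene lists, with the number of members in parentheses. Filled points passed an adjusted p of 0.05 (red higher, blue lower), open points did not, and bars are medians, which run from 3.06 for mitosis to -1.49 for erythrocytes.

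Genes of the injured and transitional epithelium rose with them. Of 16 tested, 14 were higher and none lower, with a median of 1.22. Cldn4, a claudin of tight junctions that appears in epithelium after injury, measured 2.60, 7.51 and 10.0 CPM in CB and 31.6, 46.4 and 42.9 CPM in CB-O3. The lowest co-exposed library was above the highest CB library, and the log2 fold change was 2.52 ± 0.27 (edgeR adjusted p = 1.1e-07). The paired keratins Krt8 and Krt18 rose by 1.75 ± 0.15 and 1.72 ± 0.18, and Sfn, the epithelial 14-3-3 protein, by 2.11 ± 0.19. Plaur, the urokinase receptor, and the cell cycle inhibitor Cdkn1a did not pass the test, at 0.23 ± 0.13 and 0.47 ± 0.26. The list held 13 calls with the length trend removed and 12 with CB-O3 replicate 1.

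The promoter of Cldn4 is shown because it holds 2 copies of the AP-1 motif, the site of Fos and Jun dimers, at 240 and 158 bases before the start. It lies at chr5:134946885-134947184 on the minus strand, and capitals mark TGANTCA.
Cldn4: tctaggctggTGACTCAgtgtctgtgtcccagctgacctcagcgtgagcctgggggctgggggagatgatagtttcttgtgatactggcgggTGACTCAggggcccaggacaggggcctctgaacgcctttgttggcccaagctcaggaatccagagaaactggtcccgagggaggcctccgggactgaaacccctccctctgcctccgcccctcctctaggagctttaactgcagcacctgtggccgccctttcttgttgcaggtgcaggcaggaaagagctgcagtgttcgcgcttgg
The motif was in 26.7% of 15 promoters of the injury list and in 5.6% of all promoters. Of the 10 genes of AP-1 factors themselves, Fosl2 was higher (0.54 ± 0.14) and Jun was lower (-0.59 ± 0.15), beside 38.2% of all genes called. Fos measured -0.09 ± 0.34. The list median was 0.16, and -0.13 with CB-O3 replicate 1.

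The 14 largest rises had many members with few or no counts in CB. Sprr2a2, a small proline-rich protein of cornified epithelium, had no count in the CB libraries and 18.3, 27.0 and 23.6 CPM in CB-O3, at least 147-fold higher against a floor of 3 counts over the CB group. The Sprr2a genes are near copies of each other, so the assignment among them is uncertain. Psca, a surface antigen of epithelial progenitors, was likewise at 0 in CB and at 2.80, 4.69 and 3.89 CPM in CB-O3, at least 24.3-fold higher. Epiregulin, Ereg, a ligand of the EGF receptor, had 3 counts in CB and 116 in CB-O3, a ratio of 34.8 (95% counting interval 11.6 to 171). The related ligands Areg and Hbegf rose by 1.56 ± 0.28 and 0.98 ± 0.12, while Egfr, the receptor, fell by 0.86 ± 0.13. Has2, which makes hyaluronan, measured 0.216, 0 and 0.405 CPM in CB and 8.14, 5.11 and 4.46 CPM in CB-O3 (log2 4.73 ± 0.82). The other genes of the 14 largest rises were Hecw1, Tsga10ip, Slc47a2, Ptchd3, Hist1h2ap, Kbtbd6, Prss22, Pbp2, Troap and Fgl1, none above 12.2 CPM except the histone gene Hist1h2ap, one of a family of near copies.

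Among secreted immune proteins, Retnla stood first. This resistin-like protein, made by alternatively activated macrophages and by airway epithelium, measured 125, 115 and 122 CPM in CB and 1584, 2480 and 2218 CPM in CB-O3 (chr16:48842551-48844461). The groups were far apart relative to their spread, with a log2 fold change of 4.12 ± 0.25 (edgeR adjusted p = 1.3e-11). Of 12 genes listed for type 2 immunity 7 were tested, with a median of -0.11. Of these 7, Retnla and Arg1 rose and Il1rl1, a receptor of interleukin 33, fell by 1.06 ± 0.28, beside 38.2% of all genes called. Of 17 cytokines and acute-phase proteins tested, 7 were higher and 2 lower, beside 19.3% and 18.9% of all genes, with a median of 0.99. Saa3, an acute-phase apolipoprotein, measured 3.89, 8.74 and 11.8 CPM in CB and 38.2, 109 and 85.8 CPM in CB-O3 (log2 3.19 ± 0.41). Haemopexin, Hpx, rose by 2.63 ± 0.34, haptoglobin, Hp, by 1.10 ± 0.20 and lipocalin 2, Lcn2, by 1.19 ± 0.25, and complement C3 fell by 1.17 ± 0.20. With CB-O3 replicate 1, 4 of the 17 were higher and 1 lower. The transcript of tumour necrosis factor, Tnf, measured 0.89 and that of Il1b -0.10, neither past the test.

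Single chemokines differed in direction. Of 17, 4 were higher and 1 lower, beside 19.3% and 18.9% of all genes, with a median of 0.16 and a range from -1.15 to 2.94. Ccl2, which draws monocytes, went from 0, 0.137 and 0.676 CPM to 1.6, 2.70 and 3.02 CPM (log2 2.94 ± 0.66), and Cxcl17, a mucosal chemokine, rose by 1.07 ± 0.21. Cxcl14 fell by 1.15 ± 0.26. With the length trend removed 2 chemokines were higher and 2 lower, and with CB-O3 replicate 1 none was higher and 1 lower. Of 20 interferon response genes, 4 were higher and 3 lower: Cxcl10 rose by 2.62 ± 0.45 and Oasl2 and Gbp2 fell by 0.77 ± 0.20 and 0.75 ± 0.16. The rise of Isg15, 0.99 ± 0.28, did not pass without the length trend (0.54, adjusted p = 0.16), and 1 gene of the list was then higher.

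**Figure D3:**
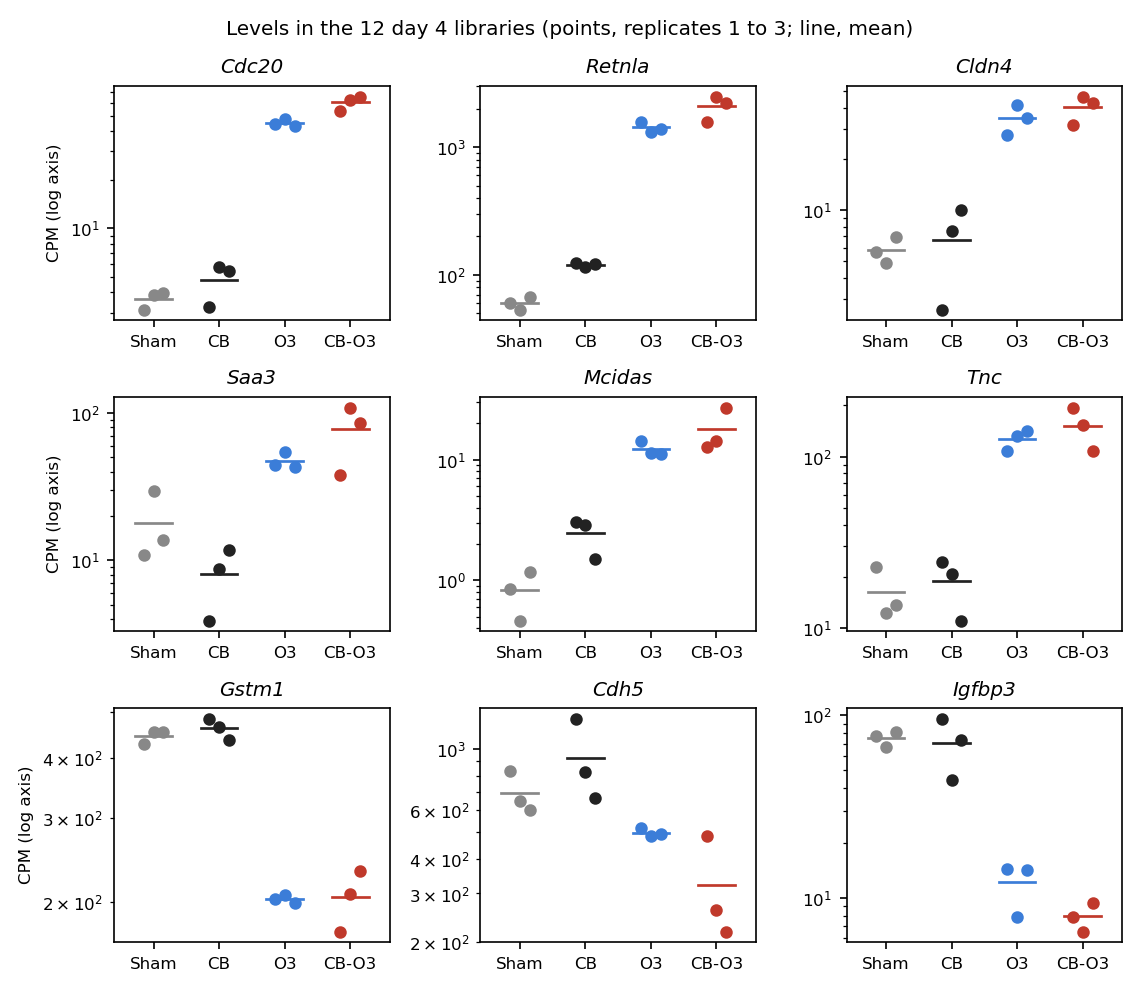
CPM on a log axis in the 12 day 4 libraries for 9 genes; points are replicates 1 to 3 from left to right and lines are means. In the CB and CB-O3 groups the libraries do not overlap for any of the 9 genes, and the ozone group lies on the side of CB-O3 for all of them.

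Regulators that start the formation of multiple cilia rose, while genes of the finished cilium mostly did not pass the test. Of 12 regulators, 9 were higher and none lower, with a median of 1.76. Mcidas, multicilin, measured 3.03, 2.87 and 1.49 CPM in CB and 12.7, 14.3 and 27.1 CPM in CB-O3 (log2 2.89 ± 0.44). Foxn4, a transcription factor of the same programme, rose by 3.46 ± 0.40, Deup1, which builds the bodies from which centrioles multiply, by 2.73 ± 0.27, and Ccno by 2.84 ± 0.33. The list includes Plk4, which also duplicates centrioles in dividing cells and rose by 2.24 ± 0.18. Gmnc, which acts upstream, measured 0.06 ± 0.23. Of 14 genes of the motile cilium, 3 were higher (Tekt1, Rsph1 and Dynlrb2, by 1.03 to 1.42) and the axonemal motor Dnah5 measured -0.10 ± 0.19. None of the 14 was higher with CB-O3 replicate 1.

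Among surface and secretory cells, the club and alveolar lists had calls in both directions, beside 19.3% higher and 18.9% lower of all genes. No set test was run, so these counts are not read as a change of the cell types. Of 13 club cell genes, 2 were higher and 3 lower, with a median of 0.02. The cytochromes Cyp2f2 and Cyp4b1 fell by 0.79 ± 0.18 and 0.80 ± 0.16 and the oxidase Aox3 by 1.34 ± 0.16. With the length trend removed 1 was higher and 5 lower (median -0.26), and the median was -0.58 with CB-O3 replicate 1. Scgb1a1 itself measured 31853, 29766 and 33589 CPM in CB and 17399, 39211 and 42866 CPM in CB-O3. Its co-exposed libraries lay on both sides of the CB libraries (log2 0.06 ± 0.25). This short transcript was at -0.48 (adjusted p = 0.043) once the length trend was removed and at -0.86 (adjusted p = 0.051) in CB-O3 replicate 1. The antimicrobial lectin Reg3g rose by 2.14 ± 0.73. Of 11 mucous cell genes, Agr2, a disulfide isomerase for mucins, rose by 2.75 ± 0.56 and the anion exchanger Slc26a4 by 1.6 ± 0.27, whereas the mucins Muc5ac and Muc5b measured -0.55 ± 0.32 and 0.08 ± 0.38. In type 2 cells, 2 of 14 genes were higher and 4 lower, with Sftpd up by 0.75 ± 0.12 and Sftpa1 down by 0.40 ± 0.10. In type 1 cells, 3 of 12 were higher and 4 lower, with the water channel Aqp5 up by 0.89 ± 0.12 and the basement membrane collagen Col4a3 down by 0.72 ± 0.21. None of these alveolar falls was called with CB-O3 replicate 1.

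Many transcripts of proteasome subunits, the respiratory chain and sterol synthesis were higher, mostly by small amounts. Of 20 proteasome subunits 17 were higher and none lower, with a median of 0.46. Psmb5, a catalytic subunit, measured 42.8, 57.4 and 58.1 CPM in CB and 81.1, 106 and 100 CPM in CB-O3 (log2 0.85 ± 0.11). Of 18 respiratory chain genes 13 were higher, also with a median of 0.46, and Cox5a rose by 1.10 ± 0.19. The median lengths of these lists, 1553 and 1832 bases, lie within the shortest of the 5 groups of genes, which runs from 105 to 1902 bases. With the length trend removed, 13 proteasome genes (median 0.29) and 4 respiratory genes (median 0.20) were higher, and with CB-O3 replicate 1, 5 and 0.

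Sterol synthesis genes gave like counts in all 3 fits. Of 16 genes 10 were higher and none lower, with a median of 0.54, and the counts were 11 and 9 in the further fits. Sqle, squalene epoxidase, rose by 0.82 ± 0.13. Among 14 targets of ATF4 and enzymes of amino acid synthesis, 7 were higher and 1 lower. Psat1 of serine synthesis measured 12.8, 9.29 and 12.3 CPM in CB and 43.0, 36.9 and 42.5 CPM in CB-O3 (log2 1.84 ± 0.18), and the mitochondrial folate enzyme Mthfd2 rose by 1.83 ± 0.19. Of these 14, 6 were higher and 3 lower once the length trend was removed, and 3 and 1 with CB-O3 replicate 1. Of 16 lysosomal genes 8 were higher, with a median of 0.27, and the sterol carrier Npc2 led by 1.09 ± 0.11, and the further fits had 5 and 6 higher. Of 12 cytosolic chaperones 4 were higher, among them Hsp90aa1 at 0.90 ± 0.20, and the count was 1 without the libraries that held muscle RNA. Of 12 iron genes 1 was higher and 1 lower, with a median of 0.03, beside 38.2% of all genes called. The iron importer Tfrc rose by 0.80 ± 0.19 and Heph was the gene that fell, at -1.16. Ferritin heavy chain, Fth1, measured -0.16 ± 0.11.

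Macrophage genes changed in both directions. Of 18 genes of phagocytic and lipid-handling macrophages 8 were higher and 1 lower, with a median of 0.08. Spp1, osteopontin, measured 106, 95.5 and 96.2 CPM in CB and 381, 379 and 226 CPM in CB-O3 (log2 1.73 ± 0.27). The elastase Mmp12, arginase Arg1 and the lipid receptor Trem2 rose by 1.76 ± 0.33, 2.00 ± 0.37 and 1.3 ± 0.30, and Apoe was the gene that fell. Gpnmb, a glycoprotein of phagocytes that take up particles, measured 60.8, 48.9 and 35.9 CPM in CB and 49.5, 32.2 and 18.1 CPM in CB-O3, groups that overlapped (log2 -0.53 ± 0.24, adjusted p = 0.082). Of 13 genes of resident alveolar macrophages none was higher and 6 were lower: Ear1 and Ear2, eosinophil-associated ribonucleases, fell by 2.13 ± 0.22 and 1.33 ± 0.18 and Fabp1 by 2.06 ± 0.28. The Ear genes are close paralogs, so their counts may be shared between them. Marco, a scavenger receptor of the same cells, measured 0.02 ± 0.36. The phagocytic and resident medians, 0.08 and -0.45, were -0.05 and -0.64 with the length trend removed, where the counts were the same. With CB-O3 replicate 1 they were 0.37 and -0.18. The summed level of the resident list was 1186 to 1309 CPM in CB and 810 to 1876 CPM in CB-O3, on both sides of CB.

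Of 16 neutrophil genes listed 13 were tested, and Ltf alone passed the test. The chemokine receptor Cxcr1, which neutrophils carry and which was not in that list, was lower at -2.06 ± 0.47 (edgeR adjusted p = 0.0012), and at -1.86 (adjusted p = 0.089) with CB-O3 replicate 1. S100a8 measured 143, 32.9 and 75.7 CPM in CB and 40.6, 61.2 and 32.4 CPM in CB-O3, with overlapping groups, and S100a9 gave -0.53 ± 0.83. Ltf, lactoferrin, which airway glands make as well as neutrophils, rose by 2.62 ± 0.74, from 39.8, 111 and 194 CPM to 441, 565 and 1141 CPM. The neutrophil marker Ly6g was at no more than 0.676 CPM in CB and at 0 in all 3 CB-O3 libraries. Among genes of classical monocytes, Vcan and Fn1 rose by 1.26 ± 0.42 and 0.82 ± 0.29 and Ly6c2 fell by 0.99 ± 0.31. These calls were fragile: neither Vcan nor Fn1 passed without CB-O3 replicate 1 (1.10 and 0.49), without CB replicate 2 (1.05 and 0.80) or without CB replicate 3 (1.06 and 0.66), Vcan did not without CB-O3 replicate 2 (1.18), and Ly6c2 did not without CB-O3 replicate 3 (-0.78) or CB replicate 1 (-0.69). None of the 3 passed without both libraries that held muscle RNA. Of 12 genes listed for eosinophils, basophils and mast cells only 6 had enough counts to be tested, and none of the 6 passed.

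Lymphocyte genes fell. Of 15 genes of T and NK cells 14 were lower, with a median of -1.11, and of 14 genes of B and plasma cells 8 were lower, with a median of -1.17. Gzma, a granzyme of cytotoxic cells, measured 21.4, 12.98 and 14.2 CPM in CB and 7.47, 4.12 and 3.31 CPM in CB-O3 (log2 -1.68 ± 0.29). Cd79a, a chain of the B cell receptor, went from 39.4, 40.6 and 39.6 CPM to 9.34, 13.2 and 19.3 CPM (log2 -1.52 ± 0.40). Of 12 dendritic cell genes 9 were lower, led by Siglech of plasmacytoid cells at -2.06 ± 0.35, and 1, the actin bundler Fscn1, was higher at 1.24 ± 0.22. With the length trend removed 14 T and NK genes, 8 B cell genes and 8 dendritic genes were lower, and with CB-O3 replicate 1 they were 3, 4 and 3, with medians of -0.95, -1.72 and -0.70. Haemoglobin transcripts of red cells moved the same way: 6 of 9 erythrocyte genes were lower with a median of -1.49, and Hbb-bs measured 6453, 5328 and 4762 CPM in CB and 1870, 2477 and 1520 CPM in CB-O3. With CB-O3 replicate 1 the median was -1.56 and 1 of the 9 was called. The summed erythrocyte level was 11562 to 16718 CPM in CB and 3974 to 6929 CPM in CB-O3, and its part in the falls of blood-borne cell types was not tested.

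Endothelial genes fell as well. Of 16 genes shared by endothelial cells 13 were lower, with a median of -0.75, and of 10 genes of capillary subtypes 9 were lower, with a median of -1.04. Cdh5, the cadherin of endothelial junctions, measured 1285, 821 and 667 CPM in CB and 485, 262 and 218 CPM in CB-O3. All co-exposed libraries were below all CB libraries, and the log2 fold change was -1.52 ± 0.23 (edgeR adjusted p = 1.3e-05). The endoglin gene Eng fell by 1.47 ± 0.19, the angiopoietin receptor Tek by 1.35 ± 0.18, Kdr, the main receptor of vascular endothelial growth factor, by 1.08 ± 0.15, and Ednrb, an endothelin receptor of capillaries, by 1.55 ± 0.18. With the length trend removed, 14 of 16 and 10 of 10 were lower. With CB-O3 replicate 1, 8 of 16 and 4 of 10 were, with medians of -0.68 and -0.73, and Cdh5 was then at -0.93 (adjusted p = 0.020). Of 11 genes of coagulation and fibrinolysis 3 were higher and 2 lower, with a median of 0.28, beside 38.2% of all genes called. The 2 that fell were thrombomodulin, Thbd, and the coagulation inhibitor Tfpi, both made by endothelium, by 1.08 ± 0.17 and 0.86 ± 0.14. Of 8 smooth muscle genes 2 were lower and none higher, beside 18.9% of all genes lower, with a median of -0.16. The 2 were Myh11 and Synpo2 (Synpo2 alone once the length trend was removed). The actin Acta2 measured 0.19 and Tagln 0.31, neither past the test.

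Fibroblast and matrix genes went in different directions. Of 11 genes that mark lung fibroblasts 7 were lower and none higher, with a median of -0.89. The growth factor receptors Pdgfra and Pdgfrb fell by 1.43 ± 0.27 and 1.02 ± 0.17, the methyltransferase Inmt by 1.67 ± 0.23 and the growth factor Fgf10 by 1.17 ± 0.20. With CB-O3 replicate 1, 4 of the 11 were lower (median -0.70), and Pdgfra was at -0.88 (adjusted p = 0.084). Of 17 genes of fibrillar matrix and its turnover, 7 were higher and 1, Postn, was lower. Tnc, tenascin C, a matrix protein of wounds, measured 24.4, 20.8 and 11.1 CPM in CB and 193, 152 and 108 CPM in CB-O3 (log2 3.03 ± 0.38). The protease inhibitor Timp1 rose by 2.74 ± 0.31, the membrane protease Mmp14 by 1.52 ± 0.15 and collagen Col1a1 by 1.01 ± 0.22. Without CB-O3 replicate 1, 4 of the 17 were higher. Of 7 mesothelial genes Msln rose by 1.3 ± 0.22 and 3 fell.

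NRF2 is a transcription factor that answers oxidants. Of 24 of its targets 6 were higher and 2 lower, with a median of 0.23, beside 38.2% of all genes called in either direction. Prdx1, a peroxiredoxin, measured 265, 391 and 371 CPM in CB and 478, 595 and 537 CPM in CB-O3 (log2 0.65 ± 0.11), and Gclc, the catalytic subunit for glutathione synthesis, rose by 0.48 ± 0.13. Gstm1, a glutathione transferase, went from 484, 466 and 437 CPM to 174, 209 and 233 CPM (log2 -1.17 ± 0.12, edgeR adjusted p = 4e-08). Nqo1, the usual reporter of the pathway, measured 3.25, 18.9 and 7.57 CPM in CB and 10.4, 9.51 and 14.5 CPM in CB-O3, with overlapping groups. With the length trend removed 4 were higher and 3 lower, and with CB-O3 replicate 1, 3 and 1.

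The promoter of Prdx1 is shown as the member of this list that rose with the lowest adjusted p and holds the core of the antioxidant response element, TGACNNNGC, here on the opposite strand as GCNNNGTCA. It lies at chr4:116685349-116685648 on the plus strand, and capitals mark the match, 133 bases before the start.
Prdx1: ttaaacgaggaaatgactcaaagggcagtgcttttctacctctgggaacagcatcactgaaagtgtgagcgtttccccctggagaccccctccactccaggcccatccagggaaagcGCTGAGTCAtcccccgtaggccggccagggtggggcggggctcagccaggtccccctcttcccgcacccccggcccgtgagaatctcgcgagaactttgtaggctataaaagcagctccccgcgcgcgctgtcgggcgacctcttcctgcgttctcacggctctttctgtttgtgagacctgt
The core was in 30.8% of 26 promoters of the list and 14.3% of all promoters, and in 14.6% of promoters of genes that rose in the comparison. The match overlaps a match to the AP-1 motif.

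Hormone and clock genes changed in both directions. Of 12 glucocorticoid targets and metallothioneins 6 were lower and 2 higher: the metallothioneins Mt1 and Mt2 rose by 1.17 ± 0.24 and 1.69 ± 0.33, and the transcription factor Klf9 and the sulfotransferase Sult1a1 fell by 0.91 ± 0.18 and 1.49 ± 0.28. Fkbp5, a sensitive target of the receptor, measured 0.52 ± 0.34. With CB-O3 replicate 1 neither metallothionein was called (0.64, adjusted p = 0.18, and 1.15, adjusted p = 0.089), and 2 genes of the list were lower and none higher. Of 16 clock genes 5 were lower and 1 higher, beside 18.9% and 19.3% of all genes, with Per1 at -1.31 ± 0.19 and Nr1d1 at -1.35 ± 0.30. The labels used here give no hour of collection. With the length trend removed 3 clock genes were lower, and with CB-O3 replicate 1, 1.

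Among the 12 largest falls, Igfbp3 had the lowest adjusted p. This binding protein of insulin-like growth factors measured 95.8, 44.0 and 72.8 CPM in CB and 7.87, 6.53 and 9.36 CPM in CB-O3 (log2 -3.15 ± 0.28, edgeR adjusted p = 1.6e-08). The dipeptidase Dpep1 went from 129, 124 and 106 CPM to 38.4, 24.3 and 20.01 CPM (log2 -2.12 ± 0.23), and the natriuretic peptide receptor Npr3 fell by 2.18 ± 0.46. Cyp1a1, the cytochrome induced through the aryl hydrocarbon receptor, stood at 9.74, 197 and 21.4 CPM in CB and at 4.80, 5.96 and 8.2 CPM in CB-O3, so that CB replicate 2 set the size of its change (log2 -3.61 ± 0.72). The table has 2 genes with the symbol St6galnac2, and the one that fell (ENSMUSG00000110170) was likewise at 16.4 CPM in CB replicate 1 and at 2.05 and 2.16 CPM in the other CB libraries. The other genes were Fam124b, Apol11b, Galnt13, Chp2, Ear1, Colq and Fam71f2. All 26 genes of the largest rises and falls kept their direction with the length trend removed. They were picked for libraries that did not overlap, so their direction with CB-O3 replicate 1 was set by that choice. Their calls cannot be judged in that fit, which has 1 co-exposed library.

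The same addition of ozone without particles was measured by ozone against sham on day 4, a comparison that shares no library with this one. It called 3089 genes (20.7%; 11.7% higher and 9.07% lower), of which 1979 were called in the same direction in both (34.8% of the 5687 and 64.1% of the 3089) and 12 in opposite directions. Mitosis genes had a median of 3.19 there against 3.06, replication genes 1.70 against 1.89, multiciliogenesis 1.54 against 1.76, and capillary genes -0.73 against -1.04. Retnla was at 60.2, 53.5 and 66.9 CPM in sham and 1564, 1318 and 1390 CPM in ozone, and Cdc20 at 3.13, 3.84 and 3.97 CPM in sham and 44.4, 47.7 and 43.3 CPM in ozone.

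The difference between these responses was tested directly and was past the threshold for 204 genes (1.37%), 114 (0.766%) higher and 90 (0.605%) lower in the presence of carbon black. Of 18 phagocytic macrophage genes, 6 had a more negative response with particles. For Gpnmb the ozone response was 1.76 without particles and -0.53 with them, a difference of -2.30 (adjusted p = 0.0066). Sham libraries held 8.81 to 15.03 CPM, ozone libraries 33.5 to 50.1 CPM and both particle groups 18.1 to 60.8 CPM, so all 3 exposures were above sham. Of the resident macrophage genes 4 had a more negative response, and of the proteasome subunits 3 had a more positive one. The 204 depended on the fit: 45 genes passed with the length trend removed, 39 of them among the 204, and with CB-O3 replicate 1 alone edgeR called 0, with 619 genes at an unadjusted p under 0.05. It was 2979 without CB-O3 replicate 1, 1293 without CB replicate 3, 238 without sham replicate 1, 114 without sham replicate 2 and 0 to 31 without any 1 of the other 8 day 4 libraries; the 0 came without sham replicate 3, where 2606 genes had an unadjusted p under 0.05.

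**Figure D4:**
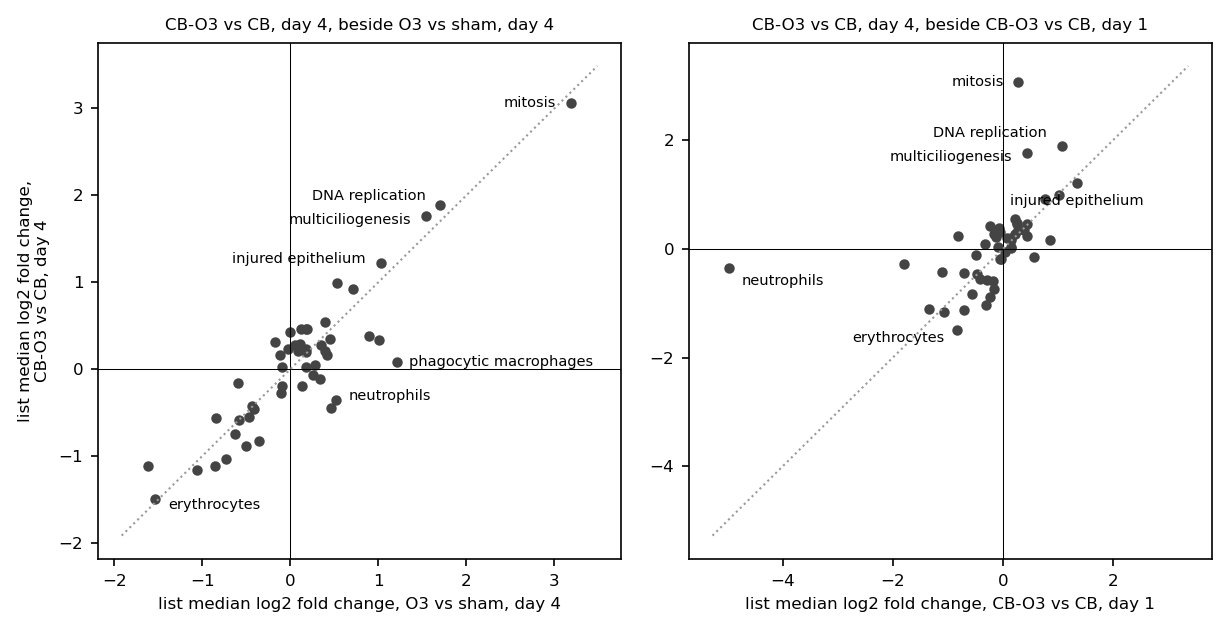
Median log2 fold change of 50 gene lists in CB-O3 against CB on day 4 (vertical axes) beside ozone against sham on day 4 (left) and CB-O3 against CB on day 1 (right); each point is a list, the dotted line marks equal values, and the 3 lists of muscle and fat are left out. Mitosis genes lie at 3.06 on day 4 and at 3.19 and 0.28 in the other comparisons, and neutrophil genes at -0.36 on day 4 and -4.97 on day 1.

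After a single exposure the same comparison called 3849 genes (25.9%; 13.1% higher and 12.7% lower), and 2085 were called in the same direction on both days (36.7% of the 5687 and 54.2% of the 3849) and 61 in opposite directions. The difference between days was past the threshold for 1660 genes (11.2%), 904 (6.07%) more positive and 756 (5.08%) more negative on day 4. All 20 mitosis genes were among those more positive, since their median was 0.28 on day 1, when 1 of 20 was called. Of the replication genes 19 were already higher on day 1, with a median of 1.07, and 9 rose further by the test of the difference. Injury genes had medians of 1.34 on day 1 and 1.22 on day 4. Endothelial genes had a median of -0.17 on day 1, and 10 of 16 were more negative on day 4.

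Neutrophil and NRF2 genes behaved otherwise. Neutrophil genes had a median of -4.97 on day 1, with 12 of 13 lower, and 9 were more positive on day 4 by the test of the difference. The CB libraries of day 1 spread widely here, with S100a8 from 28.03 to 1361 CPM, while the CB-O3 libraries held 3.81 to 9.32 CPM. Of the NRF2 targets 14 were higher and none lower on day 1, with a median of 0.44, and 9 of 24 were more negative on day 4. Gsta1, a glutathione transferase, was at 14.3 to 32.0 CPM in CB-O3 on day 1 and at 0.801, 2.56 and 2.02 CPM on day 4. The difference between days in its response was -6.34 (edgeR adjusted p = 0.0013), beside a day 4 change of 0.74. These values place its CB level on day 1 near or below 3 counts, so the size of the difference is uncertain.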

How the data were processed

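RNA from 28 mouse lung homogenates had been sequenced as polyA libraries and quantified with Salmon 1.1.0, per the labels' protocols; mm10 is the build in the submitters' processing notes. The authors deposited 1 table of estimated counts per gene. These expected counts were rounded to whole numbers and fitted with edgeR 4.0.16 (R 4.3.3; TMM, filterByExpr, robust quasi-likelihood; 1 mean per group over all 28 libraries, 20 residual degrees of freedom). A gene was called at a Benjamini-Hochberg adjusted p under 0.05. CPM are scaled by TMM. Values after ± are an approximate SE of the log2 fold change, its absolute size divided by the square root of the F statistic. The procedure was tested on simulated data. Same-numbered libraries were not treated as pairs.

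The comparison and the 53 gene lists (695 genes, 662 tested) were chosen with earlier results of these data known. Lists are described by counts and medians without a set test. Genes named are the 14 largest rises and 12 largest falls with non-overlapping libraries, a change of at least 1 and 2 CPM, the first 2 and the 4 lowest p of each list, and 6 extremes each way of each difference; Tnf, Il1b, Apoe and Postn, outside this rule, were named after their values were seen. Alternatives were other scalings, filters, tools and left-out libraries; the length trend (a lowess of log ratio on log transcript length per library, used as offset) and 2 sets of left-out libraries were added after seeing the data. Some members of the lists are not reported here by name.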

Additional observations from a re-analysis of the deposited data

Results flagged for a closer look

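The response to ozone differed between lungs with and without carbon black on day 4 for 204 genes, and the CB-O3 against CB comparison differed between days for 1660 genes, each by a test of the difference itself (edgeR, adjusted p under 0.05). Values below are differences of log2 fold changes.

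With carbon black the ozone response was more positive for Xlr3b (2.72), Prr7 (1.99), Klf2 (1.43), Rbks (1.33), Mettl1 (1.24) and Itga2b (1.23). It was more negative for Ear6 (-6.93), Cxcr1 (-4.43), Tlr8 (-2.68), Gpnmb (-2.30), Slc7a11 (-2.29) and Slc39a2 (-2.0). Ear6 had no count in sham, so its value depends on the prior count. Of these 12 genes, Ear6, Cxcr1, Gpnmb and Slc39a2 were still past the threshold with the transcript-length trend removed, and none was without sham replicate 3.

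On day 4 the comparison was more positive than on day 1 for Sprr2a2 (7.99), Slc47a2 (6.58), the neutrophil genes Mmp8 (6.37), S100a9 (6.20) and S100a8 (5.72), Acod1 (5.97), Hecw1 (5.38), Troap (4.09), Kbtbd6 (3.85), Has2 (3.83), Hist1h2ap (3.43) and Fgl1 (2.61). It was more negative for Gsta1 (-6.34), Fam124b (-2.88), Calcb (-2.79), Rbfox3 (-2.62), Fam71f2 (-2.46), Omd (-2.43), Igfbp3 (-2.17), Galnt13 (-2.15), Ear1 (-2.0) and Dpep1 (-1.66). Acod1 was at no more than 0.667 CPM in the day 4 libraries compared, and at 0.422 to 10.8 CPM in CB on day 1.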

How the results depend on the processing

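The count of 5687 genes lay between 4408 and 5809 under other scalings, filters, DESeq2, limma-voom, the replicate block (5759), the length trend removed and without both libraries that held muscle RNA, and between 4322 and 6293 when 1 library was left out. It was 2373 in a fit of the 6 compared libraries alone and 1999 with CB-O3 replicate 1 as the single co-exposed library, both of which have fewer samples; members of the lists past the threshold numbered 177 in the latter, beside 331. Same-numbered CB and CB-O3 libraries deviated together by r = 0.106, -0.108 and 0.491, so the numbers were not taken as pairs. For the 204 genes whose ozone response differed with carbon black, the count was 1028 by DESeq2 (3764 genes without an adjusted p), 64 without a low-count filter, 879 with the replicate block, 317 with upper-quartile scaling, 45 with the length trend removed, 0 with only the compared groups (2429 at an unadjusted p under 0.05 by edgeR) and 0 with CB-O3 replicate 1 (619), and 0 to 2979 with 1 library left out; the cause was not tested. The difference between days counted 772 genes with only the compared groups and 913 with CB-O3 replicate 1, and 1245 to 2220 with 1 library left out. The day 1 comparison ranged from 2534 (without day 1 CB-O3 replicate 3) to 4127 with 1 library left out. Ozone against sham, 3089 as reported, ranged from 2109 to 2624 with 1 library left out and from 2551 to 4063 under the other alternatives. Sftpc and Scgb1a1, at 0.05 and 0.06 and not called, turned to -0.36 and -0.48 with the length trend removed, both past the threshold (adjusted p = 0.011 and 0.043). With only the compared groups, 8 proteasome, 3 respiratory chain, 8 T and NK, 5 dendritic, 2 NRF2 and 1 lysosomal gene passed in the leading direction. Depth limits genes near 1 CPM, where 3 counts were 0.415 to 0.584 CPM.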
